A study of Oryza sativa Indica Group with 6 samples.

Results

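The rice insertion lines Osoc and OsPE were compared by their seedling transcripts: the 2 arrays labelled Osoc stood against the 2 labelled OsPE, out of 6 arrays in the series. Of the 57381 probe sets on the array, the 57258 that are not manufacturer controls were read, and 39629 of them were bright enough to be tested. Both lines are T-DNA insertional mutants of Basmati rice, labelled as Oryza sativa Indica Group, grown under optimal conditions and collected 15 days after germination. Each line has 2 biological replications, and the third line, Ossl, is of the same kind and age and is given beside the pair where it helps to place a difference. An untransformed line was not used here, so a higher signal in Osoc cannot be told apart from a lower signal in OsPE. The labels leave unstated the sites of the insertions, the meaning of the line names, the number of plants behind an array and any further change that a line carries. The question is which transcripts separate the 2 lines when no stress is applied.

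T-DNA is the segment that Agrobacterium transfers into a plant genome, where it can interrupt a gene at the insertion site or alter the transcription of genes near it. In rice seedlings, jasmonate controls defence and growth through JAZ repressors, which hold back transcription factors until the hormone causes their degradation. Grasses take up iron with mugineic acid chelators made from nicotianamine, build stiff secondary walls from cellulose made by a dedicated set of cellulose synthases, and make chlorophyll along a plastid pathway in which protochlorophyllide reductase performs a light-driven step.

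A probe set is a group of short probes for 1 transcript, and its signal is a scaled brightness with no unit. On every array the mean signal without the lowest and highest 2% was 500.1, and the median lay between 37.4 and 42.8. Log2 signals correlated, across tested probe sets that are no independent replicates, at 0.976 between the OsPE arrays, at 0.974 between the Osoc arrays and at 0.967 to 0.969 between arrays of the 2 lines. The ratio of 3′ to 5′ actin signal, a measure of how far the labelled RNA reached, was 7.33 and 7.85 in OsPE and 5.71 and 4.37 in Osoc, and that of GAPDH was 8.65 and 8.99 against 7.62 and 8.28, both lower in Osoc. That of cyclophilin was 1.69 and 2.46 in OsPE and 2.63 and 2.5 in Osoc, which is the opposite direction. Of the poly-A RNA controls, the 5′ ends of dap, phe and thr were higher in Osoc by 0.27 to 0.41 on the log2 scale, and the other 5 probe sets, both ends of lys among them, differed by -0.07 to 0.13. Ossl departed further: its dap 5′ end read 188.5 and 171.4, against 999.6 and 1006 in OsPE and 1254.4 and 1252.8 in Osoc. Its thr 5′ end read 42.9 and 65.6, against 186.6 and 175.9 in OsPE and 229.7 and 253.6 in Osoc, while its lys 3′ end, at 471.6 and 573.1, was close to both lines. These values differ between the lines, and their part in the gene differences was not tested. Leaf markers (6 genes of Rubisco, its activase and light-harvesting proteins) summed to between 175301 and 187177 on the 4 arrays, none of them passed the test, and 1 was below 50 on every array. Root markers (12 genes) summed to 3040 and 2945 in OsPE and to 2606 and 2641 in Osoc, with 4 of them below 50 on every array and 1 of the 10 tested lower past the threshold. Grain markers (10 genes) summed to 2126 and 2068 in OsPE and to 1722 and 1689 in Osoc, with 6 below 50 throughout and none of the 6 tested past the threshold. None of the 34 tested genes of dividing cells passed. Fewer cells of a type and less RNA per cell cannot be told apart in these whole seedlings.

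Between Osoc and OsPE, 2955 probe sets differed (7.46% of those tested) at a Benjamini-Hochberg adjusted p below 0.05 in limma's moderated test on log2(signal + 16). Of these, 1430 (3.61%) were higher and 1525 (3.85%) lower in Osoc, while 7784 had an unadjusted p below 0.05. All folds given are ratios of signal + 16, so they understate changes of dim probe sets. Most differences were small: 1861 of the called probe sets (63%) differed by less than 1.5-fold, and the median fold was 1.34 for the higher and 1.46 for the lower ones. At least 4-fold differences were found for 59 higher and 44 lower probe sets, and at least 16-fold ones for 11 and 4. The arrays of the lines did not overlap for any called probe set, nor for 49.2% of all tested ones. Without the variance trend, which lets bright probe sets borrow a smaller variance than dim ones, 28 probe sets passed. Leaving out OsPE replicate 1, OsPE replicate 2, Osoc replicate 1 or Osoc replicate 2 left 1209, 1226, 1580 and 1382.

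The calls lay mostly among bright probe sets. With the tested probe sets split by mean signal into 4 groups of equal size, in the brightest group 10.9% were called higher and 8.4% lower, and in the group below it 2.8% and 6.04%. In the dimmest group 5 probe sets were higher and 3 lower. There the median difference between the 2 Osoc arrays was 0.637 on the log2 scale and that between the lines 0.44, whereas in the brightest group the medians were 0.0736 and 0.134. The difference between the lines is one of 2-array means, which vary less than single arrays, so these medians are unlike measures and their order is not read. At low signals a change was detectable only when it was large.

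**Figure D1:**
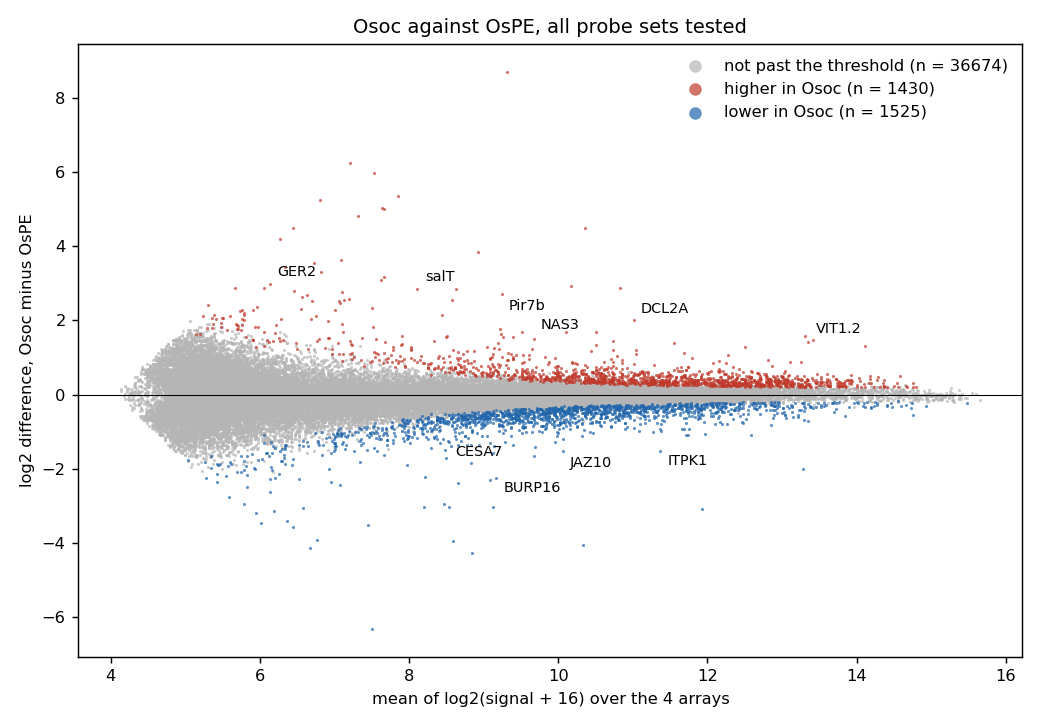
Each point is 1 of the 39629 tested probe sets, with the mean of log2(signal + 16) over the 4 arrays on the x axis and the log2 difference, Osoc minus OsPE, on the y axis. The grey cloud narrows from left to right, so the 1430 higher and 1525 lower probe sets past the threshold reach small differences only at bright signals, while the outermost points lie several units from 0.

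The widest gaps between the lines belonged to probe sets without a gene name, several of which were bright in one line and near the bottom of the scale in the other. A probe set of LOC4324944 read 6.8 and 26.7 in OsPE, 12897 and 12995 in Osoc and 8.8 and 8.4 in Ossl (adjusted p = 4.95e-09 for Osoc against OsPE), so the signal of this probe set was high in Osoc and at background in the other lines. The locus has another probe set that was bright in all 3 lines, with 4343 and 4268 in OsPE, 6706 and 7307 in Osoc and 5303 and 4878 in Ossl, a log2 difference of 0.70 between Osoc and OsPE (adjusted p = 7.86e-05). LOC9266376 had the pattern of the first of these, with 1.1 and 0.8 in OsPE, 1259.7 and 1289 in Osoc and 0.9 and 25.6 in Ossl. 3 probe sets of 1 transcript group, which the tables pair with no gene, were likewise high in Osoc alone. Among them, Os.6227.1.S1_at read 22.7 and 17.5 in OsPE, 1392 and 1525 in Osoc and 32 and 21 in Ossl (adjusted p = 4.38e-07 for Osoc against OsPE). As they share that group, the 3 count as 1 observation rather than as 3.

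In the other direction, a probe set of LOC4340325 read 1525 and 1674 in OsPE and 2.7 and 5.8 in Osoc (adjusted p = 5.56e-07). Ossl read 15.3 and 5.9, so here the signal stood out in OsPE and was at background in both other lines. The other tested probe set of the locus was dim in each line, at 74.7 and 93.5 in OsPE, 102 and 57.1 in Osoc and 36.4 and 71.7 in Ossl, and did not pass (log2 difference -0.10). Os.12865.1.S1_at fell 16.5-fold, from 5320.4 and 5102 to 336 and 269, and was lower still in Ossl at 28 and 36.6. Os.53493.1.S1_at fell 15.4-fold, from 1465 and 1520.5 to 82.5 and 82, with 117 and 46.1 in Ossl. By contrast Os.12629.1.S1_at was low in Osoc alone: it fell 19.3-fold, from 2009 and 1978 in OsPE to 98.5 and 78.7 (adjusted p = 3.51e-09), while Ossl read 1645 and 1836. The probe sets of largest change were picked from called ones whose arrays did not overlap between the lines. Of all tested probe sets, 49.2% did not overlap.

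**Figure D2:**
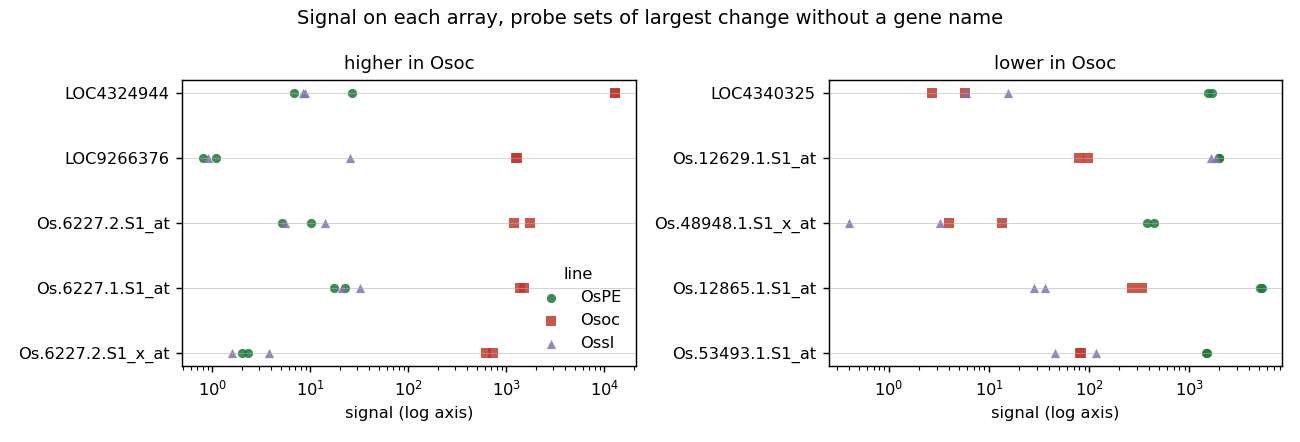
Signal on each of the 6 arrays (log axis) for the 5 probe sets per direction of largest change that have a locus number only or no gene, with OsPE as circles, Osoc as squares and Ossl as triangles. In the left panel the Osoc arrays stand alone at the right while OsPE and Ossl lie near background, whereas in the right panel Osoc and Ossl are low together for all but Os.12629.1.S1_at.

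The third line shows with which line a difference goes, although these counts share arrays and are no independent support. Of the 2955 called probe sets, 1389 differed from Ossl in the same direction as well and so set Osoc apart (668 higher, 721 lower, 3.51% of those tested). By the same rule 837 set OsPE apart from both others (2.11%), 52 of them counted in both groups, and 781 set neither apart. Among the 59 probe sets at least 4-fold higher in Osoc, Ossl differed from Osoc but not from OsPE for 28 and from OsPE but not from Osoc for 22. Among the 44 at least 4-fold lower, these numbers were 14 and 16. For 36 of the 59 the OsPE signal, and for 26 of the 44 the Osoc signal, lay below the 40th percentile of its arrays, so no fold is given for them. Of these 103 large changes, 41 belonged to a known locus and 9 to a gene with a name.

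Among named genes, several of the largest increases in Osoc concerned stress and defence proteins, and for most of them Ossl lay with Osoc rather than with OsPE. salT, a mannose-binding lectin induced by salt, read 78.7 and 96.7 in OsPE and 726 and 729 in Osoc, and a second, dimmer probe set of the gene rose from 27 and 48.3 to 370.0 and 315. Pir7b, an esterase of the pathogen response, read 253 and 191 in OsPE and 1556 and 1519.8 in Osoc. Ossl read 704 and 684 for salT and 1132 and 1166 for Pir7b, near the Osoc arrays. The late embryogenesis abundant protein gene LEA19, also named LEA3, rose 2.91-fold from 341 and 418 to 1180.4 and 1081 (adjusted p = 1.22e-05). RAB21, a dehydrin responsive to abscisic acid, rose 1.68-fold from 1270.1 and 1055 to 2085 and 1828 (adjusted p = 0.000757). Ossl was again high, at 1039.8 and 1076 for LEA19 and 2282 and 2204 for RAB21.

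The other 15 tested genes of dehydrins, LEA proteins and abscisic acid signalling did not rise. Of the 17, 2 rose, 3 fell and 12 did not pass, with a median log2 difference of -0.17 beside -0.05 over all 2300 named genes tested. Named genes are brighter than most, and 16.1% of them were called (7.39% higher and 8.70% lower), which is the share to read such counts against. The 3 that fell were the SnRK2 protein kinase genes SAPK1, SAPK2 and SAPK3, each by less than 1.5-fold. None of these 3 calls held without OsPE replicate 1, OsPE replicate 2, Osoc replicate 1 or Osoc replicate 2. The signal of OsPP2C45, a protein phosphatase gene, rose 3.53-fold from 95.7 and 69.1 to 362 and 297 on its dimmer probe set (adjusted p = 0.000198), while its brighter one read 3546 and 3525 in OsPE and 3506 and 3491 in Osoc and did not pass (log2 difference -0.02), so no direction is given for the gene.

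Chitinases led the list of pathogenesis-related proteins, in which 2 of 10 tested genes rose and 1 fell. Cht2, a chitinase gene, read 976 and 823 in OsPE and 2425 and 2155 in Osoc on its brightest probe set (SE of the log2 difference 0.10, adjusted p = 1.16e-05), and a second probe set rose 2.9-fold. Ossl was higher still, at 6914 and 5955, while the other, dim probe set of Cht2 did not differ detectably (log2 difference -0.03). CH16 rose 1.75-fold, from 699 and 676 to 1369 and 1083, and Cht11, another chitinase gene, fell 1.42-fold, from 5080.5 and 5033 to 3702 and 3402. The gene family held changes in both directions.

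The genes CYP71P1 and CYP71Z7 of specialised defence metabolism were lowest in OsPE, higher in Osoc and highest in Ossl. CYP71P1, the cytochrome P450 that hydroxylates tryptamine on the way to serotonin, read 365 and 286 in OsPE, 888 and 724 in Osoc and 1936 and 1993 in Ossl (log2 difference of Osoc and OsPE 1.27, SE 0.13, adjusted p = 0.00015). CYP71Z7, a P450 of the phytocassane branch of the diterpenoid phytoalexins, read 92 and 71 in OsPE, 272 and 258 in Osoc and 631 and 464 in Ossl. KSL7, a terpene synthase of that branch with 1 gene between it and CYP71Z7 in the reference annotation, rose from 23.4 and 29 to 111 and 71.2. That call was weak (adjusted p = 0.0454) and ended when any 1 of the 6 arrays was left out (0.0509 to 0.269). Ossl read 123.2 and 187.8 for KSL7 and did not pass against Osoc (adjusted p = 0.293). The other 11 of the 13 tested diterpenoid genes did not pass, so 15.4% were called, beside 16.1% of all named genes. The median log2 difference of the 13 was -0.24, and 7 of them were below 0. Of 6 glutathione S-transferase genes, which conjugate toxic compounds, 2 rose: GSTU6 1.66-fold from 444 and 398 to 704 and 716, and GST1 1.89-fold from 158 and 149 to 312 and 295.

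DCL2A, a Dicer-like enzyme that cuts double-stranded RNA into small RNAs, was high in Osoc only. It read 1046 and 986 in OsPE, 4059.9 and 4155 in Osoc and 861 and 820.1 in Ossl, which is 4-fold between Osoc and OsPE (SE of the log2 difference 0.08, adjusted p = 4.28e-08). Its dimmer probe set read 75.8 and 107.4 in OsPE and 175.5 and 206 in Osoc and did not pass (adjusted p = 0.094). Of the 25 tested genes of small RNA machinery 1 rose and 2 fell, or 12% called beside 16.1% of all named genes. The 2 that fell were the Argonaute genes AGO18 (309.8 and 454 to 247 and 173) and AGO2 (1547 and 1584 to 1305 and 1182). The Argonaute calls depended on single arrays: without OsPE replicate 2 the adjusted p was 0.318 for AGO18 and 0.202 for AGO2, and without Osoc replicate 2 it was 0.271 and 0.23. AGO2 did not pass without the other array of either line (0.151 and 0.0555).

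**Figure D3:**
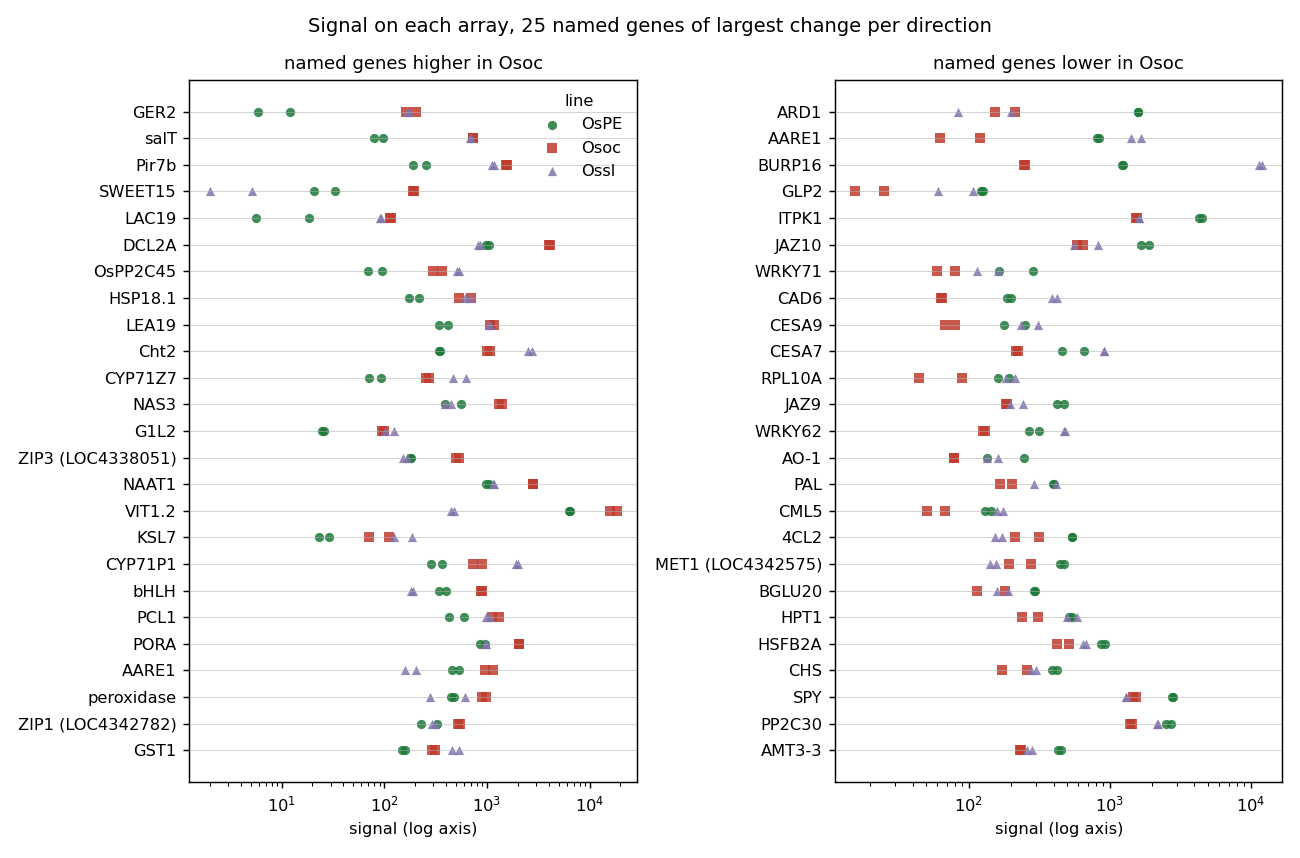
Signal on each of the 6 arrays (log axis) for the 25 named genes of largest change in each direction, with the probe set of largest change for each gene, OsPE as circles, Osoc as squares and Ossl as triangles. As the selection required, the Osoc squares lie to the right of the OsPE circles in the left panel and to the left in the right panel. The Ossl triangles side with either line. AARE1 appears in both panels because its probe sets disagree.

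Iron and zinc genes included some of the clearest increases in Osoc, and most of these were not shared by Ossl. NAS3, a nicotianamine synthase gene, read 556 and 389 in OsPE and 1324 and 1391 in Osoc (2.85-fold, adjusted p = 0.000118), with 389 and 451 in Ossl. NAAT1, the nicotianamine aminotransferase of the next step towards mugineic acids, read 976 and 1052 in OsPE and 2783 and 2784 in Osoc (2.72-fold, adjusted p = 8.64e-07), with 1143 and 1173 in Ossl. In both genes the Osoc arrays stood alone above the other 4.

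Among the transporters, ZIP3, of the zinc and iron permease family, read 177 and 181 in OsPE and 531 and 504 in Osoc (2.73-fold, adjusted p = 0.000381). VIT1.2, a transporter that moves iron into the vacuole, was among the brightest of these genes, with 6269.7 and 6495 in OsPE and 18285 and 15969.7 in Osoc (2.67-fold, SE of the log2 difference 0.076, adjusted p = 5.79e-07). The Ossl arrays read only 479.6 and 449 for it, so the 3 lines had 3 separate levels. ZIP4 rose 1.35-fold from 724 and 744 to 1009 and 983. ZIP1 (LOC4342782) rose 1.92-fold from 329 and 226 to 550.0 and 529, and this call ended without OsPE replicate 2, Osoc replicate 1 or Osoc replicate 2 (adjusted p 0.0546 to 0.0701). For none of these 4 genes did an Ossl array reach the Osoc arrays.

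The metallothionein genes MT4A and MT2C, which encode small metal-binding proteins, were high in Ossl too. MT4A rose 1.83-fold, from 6419 and 6624 to 11511 and 12445 (adjusted p = 6.51e-06), with 17886 and 16419 in Ossl. MT2C rose 1.7-fold, from 5864 and 5570.0 to 9608 and 9879 (adjusted p = 2.33e-05), with 9363 and 10357 in Ossl. All 5 tested probe sets of MT2C rose, by 0.64 to 0.91 on the log2 scale. MT2B rose 1.22-fold, from 16699 and 15014 to 18871 and 19800, and Ossl, at 17610 and 16913, did not pass against OsPE (adjusted p = 0.278).

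In all, 9 of the 51 tested genes of iron, zinc and metal homeostasis rose, 3 fell and 39 did not pass, and the median difference was -0.09. The share called was 23.5%, beside 16.1% of all named genes, and 27 of the 51 differences were below 0. The 3 that fell were NRAMP4, a metal transporter gene of the NRAMP family (1.42-fold, from 3314 and 3355 to 2319 and 2371), the yellow stripe-like transporter gene YSL12 (1.29-fold) and tom1, which exports deoxymugineic acid (1.17-fold). The root uptake genes IRT1, NAS1, NAS2 and YSL15 did not pass: IRT1 was at background in both lines and NAS1 in OsPE, and NAS2 and YSL15 had log2 differences of -0.71 and -0.35. The number that rose was 6 without OsPE replicate 2 and without Osoc replicate 2, and lay between 7 and 10 without any other array. The number that fell was 1 without OsPE replicate 1, OsPE replicate 2 or Osoc replicate 2.

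**Figure D4:**
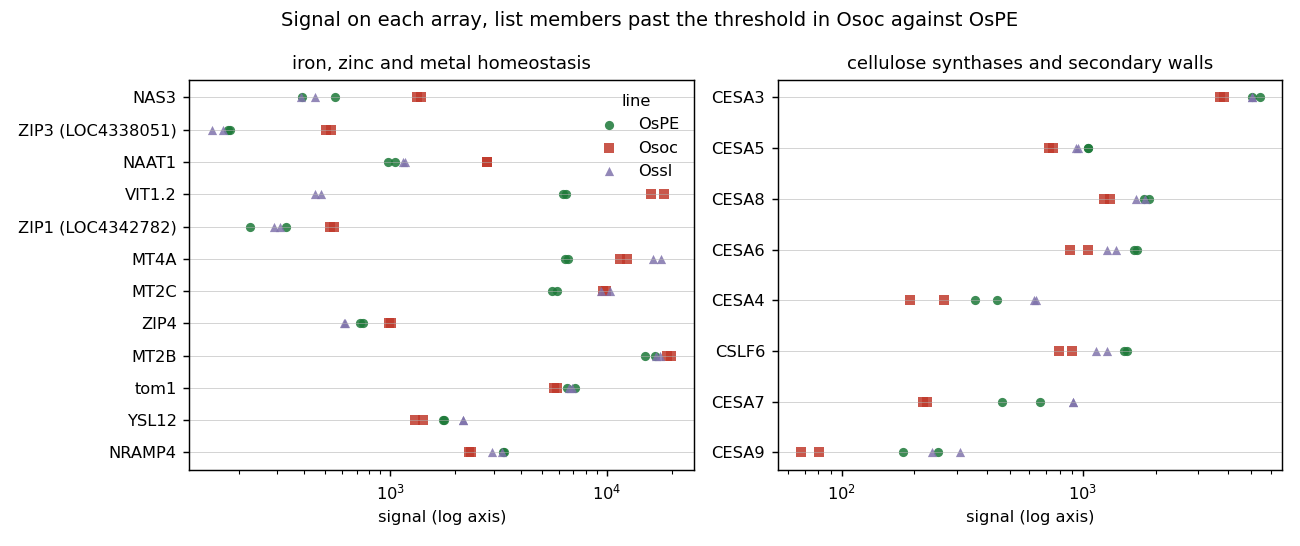
Signal on each of the 6 arrays (log axis) for the 12 genes of metal homeostasis (left) and the 8 genes of cellulose synthases and secondary walls (right) that passed between Osoc and OsPE, with OsPE as circles, Osoc as squares and Ossl as triangles. Osoc squares stand alone at the right for NAS3, NAAT1, ZIP3 and VIT1.2, and all 8 wall genes have their 2 lowest arrays in Osoc.

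Chlorophyll synthesis genes were higher in Osoc at several steps of the pathway. Of 14 tested, 8 rose, 0 fell and 6 did not pass, all 14 differences were above 0 and the median was 0.30. In the early steps, GluTR, a glutamyl-tRNA reductase, rose 1.28-fold, GSA, a glutamate-1-semialdehyde aminotransferase, rose 1.48-fold from 6910.4 and 6829.9 to 10206 and 10162, and HEMB rose 1.28-fold. GluTR did not pass without OsPE replicate 1 (adjusted p = 0.067), OsPE replicate 2 (0.0668) or Osoc replicate 2 (0.0897). UPD2, a uroporphyrinogen decarboxylase, rose 1.41-fold from 10867 and 11250.5 to 15909 and 15266. In the magnesium branch, the chelatase subunit genes CHLH and CHL1 rose 1.28-fold and 1.24-fold, and CAO, which makes chlorophyll b, rose 1.22-fold. PORA, a protochlorophyllide reductase, had the widest gap of the list, with 864 and 961 in OsPE and 2074 and 2043 in Osoc (2.24-fold, SE of the log2 difference 0.088, adjusted p = 1.22e-05), while PORB did not pass (0.15). Ossl read 983 and 963 for PORA and 6811 and 6604 for GSA, close to OsPE. The number that rose was 4 without either OsPE array, 5 without Osoc replicate 1 and 3 without Osoc replicate 2.

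Genes of photosynthesis itself gave 1 call. None of 12 carbon fixation genes passed (median -0.06). Of 5 genes of photosystems and light harvesting 1 fell, PSAG, by 1.26-fold, and 4 did not pass. NYC1, which starts chlorophyll b breakdown, rose 1.23-fold, and the other 3 breakdown genes did not pass. TOC75, the import channel of the chloroplast envelope, rose 1.42-fold from 2434 and 2274 to 3534 and 3169.8 (adjusted p = 0.00193) and was the 1 of 6 plastid biogenesis genes to pass. Both small calls depended on single arrays: PSAG did not pass without OsPE replicate 2 (adjusted p = 0.101) or Osoc replicate 1 (0.0738), and NYC1 did not pass without OsPE replicate 1 (0.0876), OsPE replicate 2 (0.25) or Osoc replicate 2 (0.261).

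Cytosolic ribosomal protein genes were also higher in Osoc: 16 of 21 rose, 0 fell and 5 did not pass, all 21 differences were above 0 and the median was 0.37. RPL30 read 4973 and 4879 in OsPE and 7529 and 7843 in Osoc (1.56-fold, adjusted p = 6.27e-05). RPL11 read 6661 and 6826 in OsPE and 10333 and 10562 in Osoc (1.55-fold, adjusted p = 4.2e-05). RPS4, rps20 and RPL9 rose 1.44-fold, 1.41-fold and 1.38-fold, and the smallest rise that passed was 1.2-fold, in RPL10A. These are small differences between bright probe sets, and Ossl lay between the 2 lines for RPL11 (8876 and 8416) and RPS4 (8131 and 9077). Of 8 translation factor genes 3 rose and 0 fell, among them eIF-4A-1 at 1.35-fold. Of 43 genes of proteasome, ubiquitin and autophagy 2 rose, the polyubiquitin genes UBQ2 (1.31-fold) and UBQ6 (1.17-fold), the latter not without any 1 array of the 2 lines (adjusted p 0.0786 to 0.188). With each array left out in turn the ribosomal count lay between 12 and 19, and the translation factor count was 1 without either OsPE array.

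Jasmonate genes were lower in Osoc. Of 36 tested, 13 fell, 0 rose and 23 did not pass, and the median difference was -0.24. Among the 13, 9 encode JAZ repressors and 4 encode enzymes of hormone synthesis. JAZ10 read 9737 and 9734 in OsPE and 5448 and 5638 in Osoc on its brightest probe set (1.75-fold, SE of the log2 difference 0.063, adjusted p = 1.34e-05), and 2.85-fold lower on the other. JAZ9, which has 1 gene between it and JAZ10 in the reference annotation, read 422 and 475 in OsPE and 184 and 188 in Osoc (2.3-fold, adjusted p = 0.00153). Ossl was low as well, with 4779 and 5264 for JAZ10 and 242 and 196 for JAZ9.

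The repressor genes JAZ13, JAZ7, JAZ6, JAZ11, JAZ12, JAZ8 and JAZ1 fell between 1.29-fold and 1.71-fold. For JAZ11 and JAZ12 the Ossl arrays lay above both lines, at 2343 and 2407 and 2621 and 2961, against 1780.2 and 1843 and 2346 and 2387 in OsPE and 1223 and 1286 and 1694 and 1699 in Osoc. Of the synthesis enzymes, the lipoxygenase genes CM-LOX1 and LOX5 fell 1.54-fold and 1.31-fold, the allene oxide synthase gene AOS (LOC4334233) 1.43-fold and the allene oxide cyclase gene aoc 1.19-fold. AOS did not pass when any 1 array of the 2 lines was left out (adjusted p 0.0778 to 0.166). The receptor genes COI1, COI1B and COI2 did not pass, with log2 differences of -0.12, -0.13 and -0.05. The number that fell was 7 without OsPE replicate 1 or Osoc replicate 2 and 8 without OsPE replicate 2 or Osoc replicate 1.

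Regulators of defence fell in part. Of 6 WRKY factor genes 3 fell. WRKY62 read 269.6 and 314 in OsPE, 129.7 and 126 in Osoc and 474 and 480.4 in Ossl (2.14-fold, adjusted p = 0.00203), and WRKY76 read 1313 and 1414, 783 and 929.5 and 1956 and 1846 in the same order (1.59-fold, adjusted p = 0.00145). For these 2 genes, which encode repressors of defence genes, Osoc was lowest and Ossl highest. WRKY71 fell 1.41-fold on its brightest probe set, from 3770.0 and 3719 to 2666 and 2619.9. NH1, the rice counterpart of the salicylate receptor NPR1, fell 1.7-fold from 922 and 1017 to 585 and 545 (adjusted p = 0.000846). In its list of 28 defence regulators and receptors (17.9% called, beside 16.1% of all named genes) 2 rose, LSD1 and Pir7b. The 3 that fell were NH1, RBOHB and RAC2 (LOC4349087). RAC2 also carries the actin names AC2 and ACT2, so it is in the list by a matching name and is not read as a defence regulator. LSD1 did not pass without OsPE replicate 2 (adjusted p = 0.0517), nor on its other 3 probe sets (log2 differences 0.17, -0.63 and 0.22). By their brightest probe sets the 3 WRKY calls held without each of the 6 arrays.

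Cellulose synthase genes were lower in Osoc. Of 28 tested genes of cellulose synthases and secondary walls 8 fell, 0 rose and 20 did not pass, and the median was -0.35. The 3 synthases of secondary walls all fell: CESA9 read 251 and 179 in OsPE and 80.2 and 67.6 in Osoc (2.54-fold), CESA7 662 and 463 and 225 and 217 (2.4-fold), and CESA4 358 and 438 and 191 and 265 (1.71-fold). Their adjusted p were 0.00578, 0.000515 and 0.0174. Ossl was at or above OsPE for each, at 310.0 and 236, 906 and 908 and 624 and 638, so Osoc was the low line. BC1 (LOC4333114), a COBRA-like protein gene of secondary walls, differed by -1.14 on the log2 scale and did not pass (adjusted p = 0.0958).

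Of the synthases of growing primary walls, CESA6, CESA8, CESA5 and CESA3 fell 1.71-fold, 1.45-fold, 1.41-fold and 1.38-fold, and CESA1 did not pass (-0.35). CSLF6, which makes the mixed-linkage glucan of grass walls, fell 1.76-fold, from 1473 and 1527 to 898 and 797 (adjusted p = 0.000354). Without either OsPE array the count was 6, and without any other array the count was 8. CESA9 was lost without OsPE replicate 1 (adjusted p = 0.0888). Of 22 genes of expansins and xyloglucan enzymes, which loosen walls, 3 fell and 0 rose (13.6% called, beside 16.1% of all named genes). They were EXPB4 (1.66-fold), EXP2 (1.61-fold) and EXPB3 (1.37-fold), and EXPB4 did not pass without OsPE replicate 1 (adjusted p = 0.0778).

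Lignin and phenylpropanoid genes fell more often than they rose. Of 24 tested, 7 fell, 2 rose and 15 did not pass, with a median of -0.30. At the entry of the pathway PAL, a phenylalanine ammonia-lyase gene, fell 1.35-fold on its brightest probe set, from 8838 and 9000.1 to 6081 and 7186. The 4-coumarate ligase genes 4CL2 and 4CL3 fell 2.03-fold and 1.4-fold. CAD6, of the cinnamyl alcohol dehydrogenase family, read 199 and 188 in OsPE, 63.2 and 65.1 in Osoc and 391 and 419.8 in Ossl (2.61-fold between Osoc and OsPE, adjusted p = 0.00159). In the flavonoid branch CHS, a chalcone synthase, fell 1.44-fold from 8005 and 8003 to 5366 and 5773 and CHI, a chalcone isomerase, 1.28-fold. Among the laccases, which join lignin units, LAC7 fell 1.23-fold, while LAC19 rose from 18.5 and 5.6, at background in OsPE, to 117 and 114. Without OsPE replicate 1 the count that fell was 3, without OsPE replicate 2 or Osoc replicate 2 it was 4, and without any 1 array of the 2 lines the count that rose was 1. Among these genes, the call of 4CL2 ended without OsPE replicate 1, OsPE replicate 2 or Osoc replicate 2 (adjusted p 0.0664 to 0.0765).

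In 4 lists of signalling and transport genes most calls were lower in Osoc, but the share called was 13.2% for PP2C phosphatases, 14% for ion channels, 17.6% for MAP kinases and 19.7% for calcium sensors, beside 16.1% of all named genes. Of 76 tested calcium sensors and calcium-dependent kinases 14 fell and 1 rose (median -0.11). CML16 read 9472 and 9202 in OsPE and 6034 and 6072 in Osoc (1.54-fold, adjusted p = 4.55e-05), and CML4 read 3114 and 2819.8 and 1649 and 1832 (1.7-fold, adjusted p = 0.000166), both being calmodulin-like proteins. The kinase gene CIPK17 fell 1.74-fold, from 1299 and 1218 to 730.0 and 702, and CIPK14 was the 1 that rose (1.38-fold). Ossl stood above OsPE for CML4 (5314 and 4861) and between the lines for CML16 (7222 and 6935). Without OsPE replicate 1 or Osoc replicate 1 there were 7 that fell, 6 without OsPE replicate 2 and 12 without Osoc replicate 2.

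Of 53 PP2C phosphatase genes 7 fell and 0 rose by their brightest probe sets (median -0.17). PP2C30 read 2517 and 2719.6 in OsPE and 1400.4 and 1432 in Osoc (1.84-fold, adjusted p = 2.96e-05), and Ossl read 2163 and 2196. The count was 3 without either OsPE array, 2 without Osoc replicate 1 and 4 without Osoc replicate 2. Of 17 MAP kinase genes 3 fell, led by BIMK1 (1.57-fold, from 1499 and 1673 to 1077 and 939.8), and 1 or 2 fell without any 1 array of the 2 lines. Among the 3 is MEK1 (LOC4343678), which also carries the name WNK1 of another kinase family. It is in the list by the name MEK1 alone and is counted in the 17.6% called. Of 57 genes of ion channels, pumps and aquaporins 7 fell and 1 rose, among them TPC1, a vacuolar cation channel gene (1.33-fold, from 6146 and 5981 to 4408 and 4712), with 2 to 3 falling without any 1 array of the 2 lines.

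The other hormone lists held 1 to 7 calls each. Of 29 cytokinin genes 6 fell and 0 rose (20.7% called, beside 16.1% of all named genes). These 6 were the cytokinin oxidase genes CKX11 (1.72-fold) and CKX4 (1.45-fold), the activating enzyme genes LOGL9, LOGL5 and LOGL10, and RRB4. Enzymes that activate and break down the hormone were both among them, and without any 1 array of the 2 lines the count was 1 or 2. Of 52 auxin genes 3 rose and 4 fell (1 to 4 each with 1 array left out). These were 13.5% called, beside 16.1% of all named genes, with IAA2 up 1.61-fold from 916 and 942 to 1381 and 1639 and IAA3 down 1.26-fold. Of 11 gibberellin genes 1 rose, which did not pass without any 1 array of the 2 lines (CYP701A19, adjusted p 0.051 to 0.238), and 1 fell. SPY, a negative regulator of the gibberellin response, read 2787 and 2824 in OsPE and 1468 and 1539.7 in Osoc (1.86-fold, adjusted p = 2.61e-05) and was low in Ossl as well, at 1309 and 1316. Of 11 genes of ethylene and methionine salvage 1 rose and 2 fell, and of 17 of brassinosteroids and strigolactone 1 fell, and each of these 3 counts reached 0 with 1 array left out.

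Nutrient genes moved in both directions. ITPK1, an inositol phosphate kinase, read 4549.9 and 4333 in OsPE, 1558 and 1535 in Osoc and 1616 and 1612 in Ossl (2.85-fold between Osoc and OsPE, SE of the log2 difference 0.07, adjusted p = 1.92e-07). OsPE was the high line here, and the Osoc and Ossl arrays lay close together. Of 24 genes of phosphate, sulfur and inositol phosphates 2 rose and 5 fell, including the phosphate transporter gene OsPht1;1 (1.56-fold lower) and APR1, a sulfate assimilation enzyme gene (1.4-fold higher). Of 18 nitrogen genes 1 rose and 1 fell. The share called was 11.1% for nitrogen and 29.2% for phosphate, sulfur and inositol phosphates, beside 16.1% of all named genes. The glutamine synthetase gene GLN1-2 rose 1.52-fold, from 1442 and 1271 to 2041 and 2099. AMT3-3, an ammonium transporter gene, fell 1.83-fold, from 449 and 433 to 235 and 233. AMT3-3 did not pass without OsPE replicate 1 (adjusted p = 0.0582). The phosphate and sulfur genes that fell numbered 3, 2 and 2 without OsPE replicate 1, OsPE replicate 2 and Osoc replicate 1.

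Of 58 genes of sucrose and starch 5 rose and 2 fell (12.1% called, beside 16.1% of all named genes). SWEET15, a sugar exporter gene, read 32.8 and 20.6 in OsPE, 189.6 and 194 in Osoc and 5.1 and 2 in Ossl, and its call ended without OsPE replicate 2, Osoc replicate 1 or Osoc replicate 2 (adjusted p 0.0616 to 0.0829). SWEET2A, another member of the family, fell 1.49-fold from 4529 and 4153 to 3019 and 2789 (adjusted p = 0.000492). Without OsPE replicate 2 or Osoc replicate 2 none of the 58 was called higher. Of 49 antioxidant enzyme genes 6 rose (3 to 8 with 1 array left out) and 4 fell (1 to 4). These were 20.4% called, beside 16.1% of all named genes. The glutaredoxin gene GRXC1 read 6993 and 7320.0 in OsPE, 13199 and 13345 in Osoc and 6697 and 6956 in Ossl (1.85-fold, adjusted p = 2.38e-06), with Osoc alone above the others, while the glutaredoxin gene GRXS9 fell 1.33-fold.

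Heat shock genes gave 2 rising and 6 falling of 53, or 15.1% called beside 16.1% of all named genes. HSP18.1, a small heat shock protein gene, read 216 and 175 in OsPE and 535 and 699 in Osoc (2.98-fold, adjusted p = 0.000147), and its second probe set rose by 1.15 on the log2 scale. HSFB2A, a heat shock factor gene, read 919.7 and 865 and 515 and 426 (1.87-fold lower, adjusted p = 0.000757), while a probe set of less signal was not called (log2 difference -0.35). Those that fell numbered 2, 1, 1 and 3 without OsPE replicate 1, OsPE replicate 2, Osoc replicate 1 and Osoc replicate 2.

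**Figure D5:**
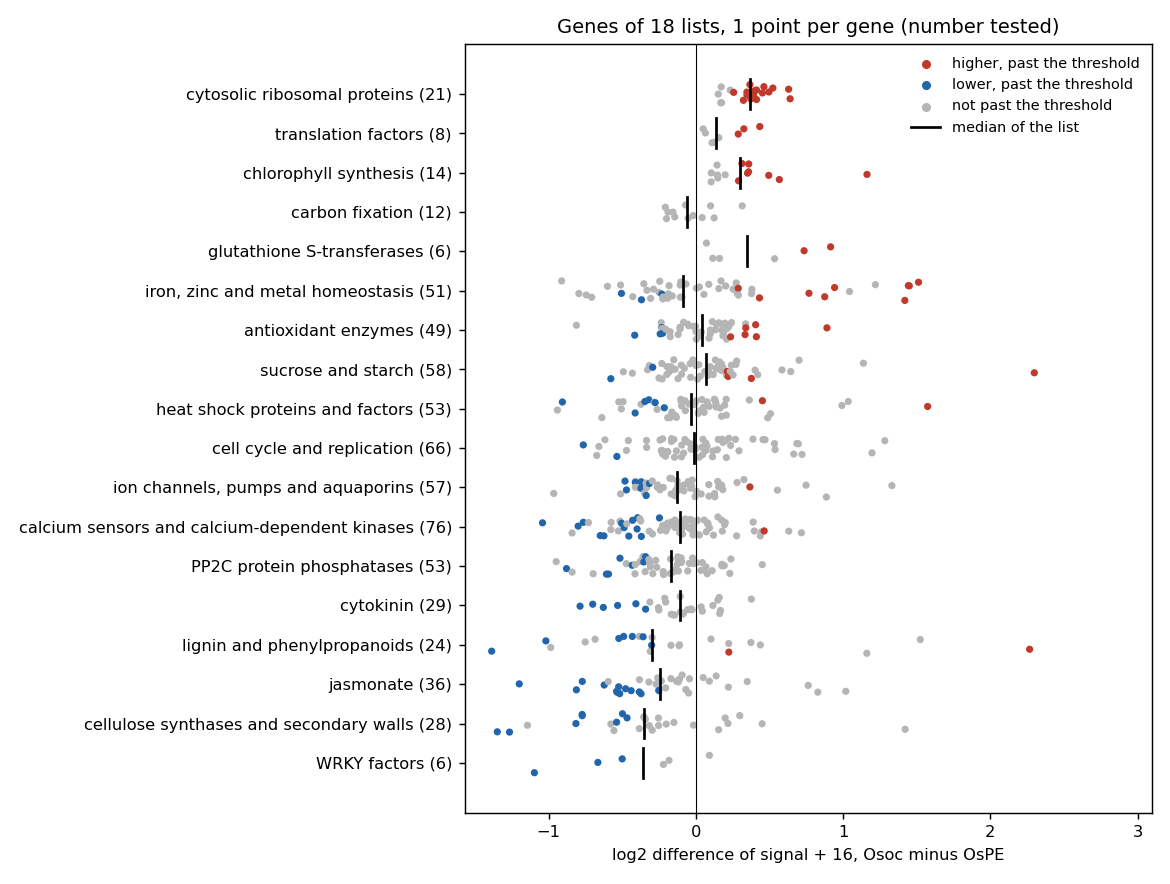
Log2 difference of signal + 16, Osoc minus OsPE, for every tested gene of 18 of the lists, 1 point per gene by its brightest probe set, with the median of each list as a bar and the number tested in parentheses. All points of the ribosomal and chlorophyll synthesis lists lie above 0, the jasmonate and cellulose synthase lists lean below 0, and the metal list spreads to both sides.

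Single genes outside these groups had wide gaps. BURP16, of the BURP domain proteins, read 1248 and 1221 in OsPE, 247 and 251 in Osoc and 11519 and 12077 in Ossl (4.72-fold lower in Osoc than in OsPE, adjusted p = 1.32e-08), so the lines had 3 separate levels. In its list of 5 tested genes BURP17 rose 1.63-fold and BURP3 fell 1.3-fold, the latter not without any 1 array of the 2 lines (adjusted p 0.0724 to 0.148). Among 8 germin-like protein genes GER2 rose from 12.2 and 5.9, at background in OsPE, to 202 and 163, whereas GLP2 fell from 122 and 125 to 15.7 and 25.2, at background in Osoc, and GER7 fell 1.48-fold. GER2 and GLP2 have 7 genes between them in the reference annotation, and the calls of GLP2 and GER7 did not hold without either OsPE array (adjusted p 0.0579 to 0.0875), nor that of GLP2 without Osoc replicate 1 (0.0524) or that of GER7 without Osoc replicate 2 (0.075). PCL1, a clock factor gene, rose 2.34-fold from 598 and 432 to 1116 and 1319 (adjusted p = 0.000299), while 0 of 16 genes of clock, light and flowering passed, a list that does not hold PCL1. 1 of the 6 tested probe sets of HPT1, which starts tocopherol synthesis, fell 1.88-fold from 539.5 and 516 to 308 and 241, whereas the 3 brighter ones did not pass (log2 differences 0.00, 0.03 and -0.05), so no fall is given for the gene. MET1 (LOC4342575), a DNA methyltransferase gene, fell 1.93-fold from 475 and 446 to 278 and 192. The MET1 call ended without OsPE replicate 1, OsPE replicate 2 or Osoc replicate 2 (adjusted p 0.0813 to 0.117).

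The other lists held few calls, to be read against the 16.1% called of all named genes. The cell cycle list, of 66 genes, had 2 that fell, the inhibitors of cyclin-dependent kinases KRP6 (1.7-fold) and KRP4 (1.45-fold), and 0 that rose. KRP6 did not pass without OsPE replicate 1 or Osoc replicate 2 (adjusted p = 0.0918 and 0.0884), nor KRP4 without OsPE replicate 2 or Osoc replicate 1 (0.0748 and 0.0584). Histone and chromatin genes numbered 18 with 4 lower (0 to 4 with 1 array left out), homeobox factors 39 with 4 lower (0 to 4) and bZIP and MYB factors 29 with 4 lower (2 to 5). NAC factors numbered 7 with 1 lower and MADS box factors 21 with 1 higher and 1 lower, each of which reached 0 with 1 array left out. Cytochrome P450 genes numbered 25 with 3 higher (2 to 3) and 2 lower (0 to 2), and lipid and wax genes 11 with 2 higher (2 to 3) and 1 lower (1 throughout). None passed among 8 DREB and ERF factors, 6 genes of photorespiration and one-carbon metabolism or 7 of carotenoids. The histone and homeobox counts were both 0 without OsPE replicate 1, and the homeobox count was 0 without OsPE replicate 2 too.

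Probe sets of 1 gene did not always give the same answer. Of 2871 genes with 2 or more tested probe sets, 538 had at least 1 called. In 107 of these, 2 or more were called and all in 1 direction, in 425 exactly 1 was called, and in 6 calls went in both directions. AARE1, named as an acylamino acid-releasing enzyme, was such a gene: 1 probe set read 834 and 814.5 in OsPE and 119.6 and 62.8 in Osoc, while another read 3242 and 3559 in OsPE and 6844 and 7372 in Osoc. In Ossl these probe sets read 1428 and 1660 against 1711 and 1768, so the order of the 3 lines was reversed between them, and no direction is given for the gene. RPL10A was a second, with its bright probe set higher and a dim one lower in Osoc, the latter not without OsPE replicate 1, OsPE replicate 2 or Osoc replicate 1 (adjusted p 0.0875 to 0.176). The locus labelled ARD1 carries names of a dioxygenase of methionine salvage and of a heat shock factor: 1 probe set fell from 1593 and 1580.3 to 213 and 154 and the other did not pass (log2 difference 0.15), so that change cannot be assigned to a gene here.

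Neighbouring genes called in the same direction were counted and set beside the share called of all genes. Of 10078 neighbouring pairs with both genes tested in the order of the reference annotation, 32 were both higher, 48 both lower and 78 called in opposite directions. The right-hand neighbour of a gene called higher was itself higher in 5.18%, beside 5.78% of all 16460 genes, and that of a gene called lower was lower in 7.54%, beside 6.14%. These shares are a description, and paralogues that share probes were not removed.

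The array carries 64 probe sets for reporter and vector sequences, which could mark inserted DNA. Of these, 26 were bright enough to be tested and 1 was called. It was also the only one above 200 on any array and was bright in every line, at 18108 and 16595 in OsPE and 22394 and 22739 in Osoc, a 1.3-fold difference (adjusted p = 0.00277), with 29544 and 32871 in Ossl. No line was set apart by presence against absence of this signal.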

How the data were processed

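Biotin-labelled RNA of 15-day seedlings was measured on Affymetrix Rice Genome arrays. Each deposited value is a probe set's linear signal intensity, which the authors made with GCOS 1.2, per the submitters' processing notes, by an algorithm not given in the sources used here. All 6 arrays have the same trimmed mean, and this scaling was kept. Precision is limited by the number of arrays, which give no counts.

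Lines were compared by limma 3.58.1 under R 4.3.3 on log2(signal + 16), with all 6 arrays in 1 linear model and eBayes moderation along a mean-variance trend. Probe sets were tested when their signal exceeded the 40th percentile of the array on at least 2 of the 6 arrays. Tests were two-sided with Benjamini-Hochberg adjustment over all probe sets tested. Residual degrees of freedom were 3, and those of the prior 8.98. The p-values rest on a variance pooled over the 6 arrays and moderated towards that of probe sets of like brightness. They say nothing of plants that were not sampled. The code was tested on simulated data. Replicate numbers were not treated as pairs, as the labels do not call them so. The difference of replicate 1 and replicate 2 within OsPE correlated at 0.0002 with that within Osoc, across tested probe sets.

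Gene names came from the platform's annotation and, by gene ID, from RefSeq (assembly ASM3414082v1, Oryza sativa Japonica Group); 22436 probe sets had 1 gene, 95 several and 34850 none, and of 17905 genes 2457 had a name. Basmati transcripts can differ from the probes. In the lists a gene stands for its probe set with the highest mean signal. Named were, per direction, the 25 genes with a name and the 5 probe sets without one of largest change. These were taken from called probe sets whose arrays did not overlap between the lines. Also named were up to 4 members of each of the 50 lists with the lowest adjusted p, beside every reporter probe set. Other list members were named after their values were seen. The members, lists and rules were chosen with earlier results of these data known. Figures used matplotlib 3.10.9 in Python 3.11.15.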

Additional observations from a re-analysis of the deposited data

How the results depend on the processing

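The count of 2955 called probe sets lay between 1980 and 3342 under offsets of 4 and 64, quantile normalization, median centring, no filter, a stricter filter, robust variance, and only the arrays of both lines. It was 28 without the variance trend, 1398 at adjusted p below 0.01, and 1209 to 3309 with 1 array left out. Without the trend 13 were higher and 15 lower, at adjusted p below 0.01 706 and 692, and with 1 array left out 618 to 1623 and 581 to 1686. Without the filter 1000 were lower. The count of probe sets that set Osoc apart, 1389, was 881 with median centring, 918 without the filter, 19 without the trend, 599 at adjusted p below 0.01, and 615 to 1222 with 1 array left out. That for OsPE, 837, was 548, 9, 402 and 362 to 777 under the last 4 of these. Of the 60 probe sets of largest change, 12 kept their call under every one of the 17 alternatives and 0 changed direction, and 48 lost it without the trend. No more than 1 member of any list was called in either direction without the trend. The share of higher calls stayed between 44.7% and 52.1%. A stricter threshold lowers a count by construction; for the other settings the cause was not tested. With only the arrays of both lines, which set neither line against Ossl, the counts that set a line apart could not be had.

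With the replicate number as a block, 2958 probe sets were called, and 1388 and 855 set Osoc and OsPE apart. Because the labels number the replicates without saying that a number marks a shared batch, the block was no main result. The 17629 probe sets too dim to be tested have no result here.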
